A study of Mus musculus with 15 samples.

Results

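The regulators of tubule and mitochondrial metabolism described here are 8 genes, named by symbol and taken from the 46078 genes of the table of counts: Hnf4a, Ppara, Ppargc1a, Esrra, Nr1h4, Rxra, Tfam and Nrf1. All 8 were found by symbol and all 8 passed the filter on low counts in each comparison. They were followed in RNA of the podocyte fraction, the kidney cells that a magnetic sort with antibodies to nephrin, a slit diaphragm protein, took from digested cortex. All mice were male C57BL/6J. The young mice were 4 months old and received no injection. The aged mice were 21 months old and were injected weekly at 12 mg/kg for 8 weeks, either with aPD1ab, a rat antibody (RMP1-14) against mouse PD-1, or with the control IgG2a antibody (2A3). The titles of the aged aPD1ab-injected samples give 47 days, which differs from 8 weeks. Of 15 columns of counts, 13 could be placed in a group, which gave 5 young, 4 aged IgG2a and 4 aged aPD1ab libraries, each from a single mouse. The question behind the comparisons was how age and the blocking of PD-1 change the podocyte fraction. Because only the aged mice were injected, age and injection cannot be told apart in the comparisons with young mice.

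The 8 genes form a chain of control over the energy metabolism of the kidney tubule. HNF4A, PPARA and FXR (the product of Nr1h4) are nuclear receptors that switch on the transport, fatty acid oxidation and bile acid genes of proximal tubule cells, and RXRA (Rxra) is the partner with which PPARA and FXR bind DNA. PGC-1α (Ppargc1a) is a coactivator that works through ERRα (Esrra), PPARA and nuclear respiratory factor 1 (Nrf1, a different gene from Nfe2l1) to raise mitochondrial genes, among them Tfam, whose product packages mitochondrial DNA and starts its transcription. The proximal tubule is rich in mitochondria and burns mainly fatty acids, and podocytes are not a usual site of HNF4A or FXR.

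Total counts lay between 21962193 and 27685122 in young, between 20500755 and 32717100 in aged IgG2a and between 19912969 and 31493051 in aged aPD1ab libraries, and the lowest count behind any value of the 8 genes was 73 (Ppara in aged IgG2a replicate 4). The sort did not leave podocytes alone. All 14 podocyte markers were detected, with a summed level of 286 to 1521 CPM (CPM, counts scaled to a common library size with TMM factors), whereas 20 proximal tubule markers summed to 2147 to 30499 CPM and none of them was at 3 counts or fewer in any library. Aged IgG2a replicate 1 stood apart from the other 3 aged IgG2a libraries. Its proximal tubule sum was 10997 CPM against 2147 to 3267 in those 3, and its macrophage sum (12 markers) was 6699 against 15899 to 19518. Its loop of Henle and distal tubule sum (10 markers) was 17929 against 7860 to 8117. Its collecting duct sum (11 markers) was 1270 against 648 to 760. It had no label that sets it apart, so the calls of the 8 genes are given with and without it. Levels, correlations and named genes of the lists are given with it unless stated. The 13 mitochondrially encoded mRNAs took 22.8 to 29.9% of the counts in young, 28.6 to 54.2% in aged IgG2a and 19.9 to 37.8% in aged aPD1ab libraries, and aged IgG2a replicate 1 was the lowest of its group. Because of this share the scaling matters. Dividing by library totals in place of TMM moved the median log2 difference of all genes from 0.038 to -0.38 between aged IgG2a and young mice, and the calls from 1443 higher and 1337 lower to 331 higher and 3380 lower. Between aged aPD1ab-injected and young mice it moved the median from 0.017 to -0.11 and the calls from 1984 higher and 1594 lower to 856 higher and 1632 lower. Between the aged groups it moved the median from -0.011 to 0.24.

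The promoters of the members that moved together, and of their partner, were read for short motifs of the receptors themselves. The windows are the 250 bases before the start in RefSeq on GRCm38.p6, 11 windows for the 8 genes, printed 5′ to 3′ on the strand of the gene, and the capitals mark exact matches, on either strand, to motifs of the receptors, of NRF1 or of the CCAAT box. The first 3 are those of the receptor genes that were lowest in aged IgG2a-injected mice, and the last is shown because it holds 2 matches to the core motif AGGTCA of nuclear receptors. Their positions are chr2:163506607-163506856 on the plus strand for Hnf4a (the first of its 2 starts), chr10:89506659-89506908 on the minus strand for Nr1h4, chr15:85735526-85735775 on the plus strand for Ppara and chr2:27709042-27709291 on the plus strand for the second start of Rxra. The printed windows of Nr1h4, Ppara and Rxra lie inside the genes as annotated, whose 5′ ends are at 89533585, 85734983 and 27676440. Those of Nr1h4 and Rxra lie far from these ends. The window of Hnf4a reaches past the annotated 5′ end at 163506808.
Hnf4a: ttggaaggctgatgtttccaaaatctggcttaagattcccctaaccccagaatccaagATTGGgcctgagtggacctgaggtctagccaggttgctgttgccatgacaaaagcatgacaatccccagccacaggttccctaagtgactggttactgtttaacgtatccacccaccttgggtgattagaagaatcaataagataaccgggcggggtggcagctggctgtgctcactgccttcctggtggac
Nr1h4: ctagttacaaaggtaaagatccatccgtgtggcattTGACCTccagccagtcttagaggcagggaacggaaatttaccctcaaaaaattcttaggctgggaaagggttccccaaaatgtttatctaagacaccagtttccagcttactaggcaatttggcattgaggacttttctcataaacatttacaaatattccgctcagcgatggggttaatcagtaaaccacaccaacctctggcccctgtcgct
Ppara: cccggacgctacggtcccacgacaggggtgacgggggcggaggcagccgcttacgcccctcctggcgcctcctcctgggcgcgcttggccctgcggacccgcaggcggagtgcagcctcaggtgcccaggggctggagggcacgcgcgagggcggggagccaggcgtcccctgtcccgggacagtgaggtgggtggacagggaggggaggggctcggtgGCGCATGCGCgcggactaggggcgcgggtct
Rxra: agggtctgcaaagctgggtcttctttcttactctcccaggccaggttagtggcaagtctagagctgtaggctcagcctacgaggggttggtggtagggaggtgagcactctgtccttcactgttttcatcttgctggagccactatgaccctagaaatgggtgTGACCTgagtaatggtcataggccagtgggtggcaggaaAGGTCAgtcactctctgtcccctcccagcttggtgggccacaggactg
The capitals in Ppara are the NRF1 motif, starting 31 bases before the start, and this run of letters was in 0.782% of 32851 mouse promoter windows of the same length. AGGTCA, which most of these receptors bind, was in the windows of Nr1h4 and Rxra (TGACCT on the other strand) and in 14% of all windows. The capitals in Hnf4a mark a CCAAT box (ATTGG on the other strand), present in 33.8% of all windows. The direct repeat of AGGTCA with a single base between the copies (in 0.0335% of all windows), the HNF4 motif CAAAGTCCA (0.384%), the ERR motif TCAAGGTCA (0.387%) and the inverted repeat of AGGTCA with the same spacing (0.00609%) were in none of the 11 windows. The GC box GGGCGG, not marked in the sequences, was in windows of 6 of the 8 genes and in 32.7% of all windows. The cyclic AMP response element TGACGTCA (1.55%) was in none of the 11. A match of letters is not a measured binding site, and the absence of one says nothing of binding elsewhere.

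**Figure D1:**
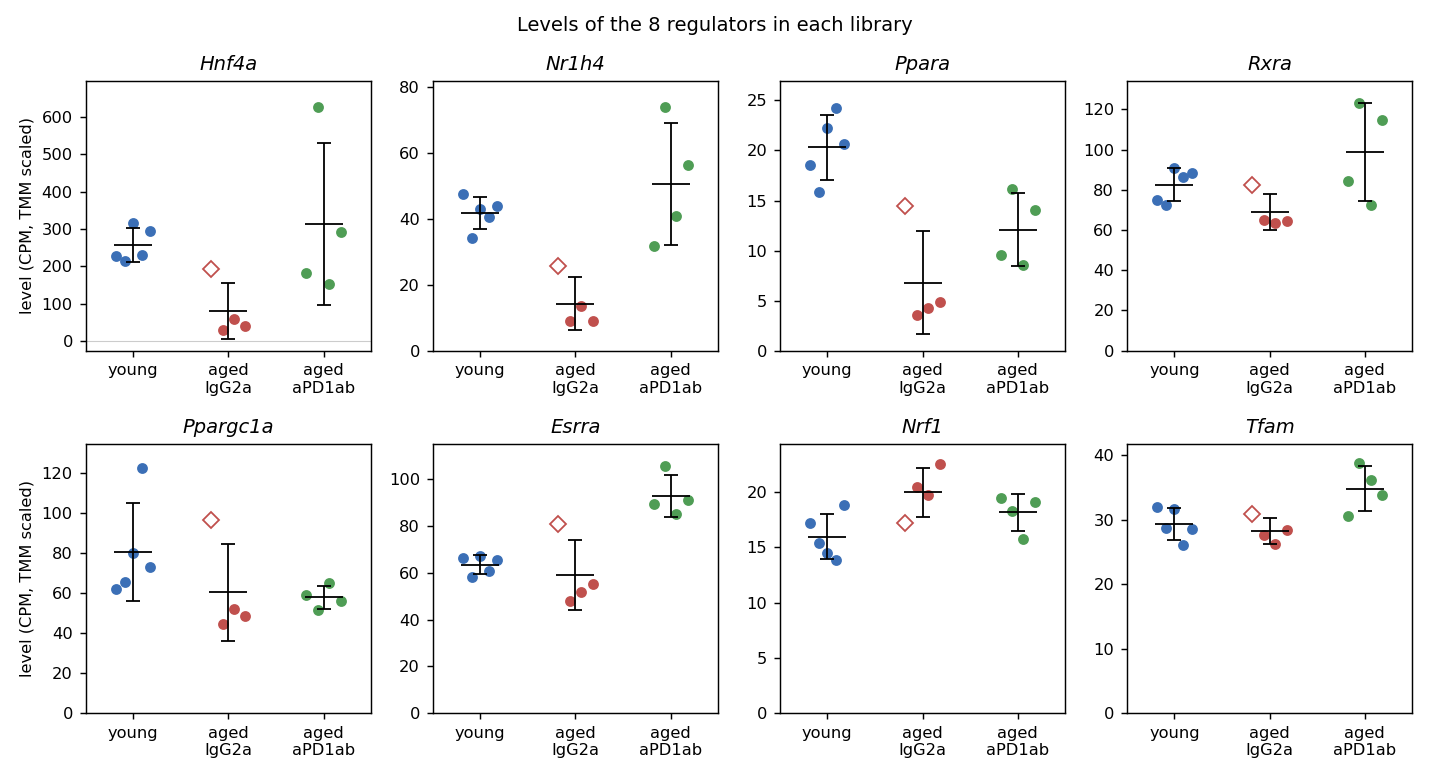
Level of each regulator (vertical axis, CPM scaled by TMM, from 0) in every library of the 3 groups (horizontal axis). Points are libraries, the open diamond is aged IgG2a replicate 1, and bars are the mean and SD. Hnf4a, Nr1h4 and Ppara sit lowest in the other 3 aged IgG2a libraries (Hnf4a at 30.9 to 60.5 CPM against 213 to 316 in young mice), and Esrra sits highest in the 4 aged aPD1ab libraries, at 84.9 to 105 CPM.

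Hnf4a was by far the most abundant of the 8 mRNAs in young mice once exon length was taken into account, at 53.1 ± 9.46 CPM per kb (SD, n = 5). It was followed by Nr1h4 at 18.2 ± 2.11, Rxra at 15.1 ± 1.52, Esrra at 14.5 ± 0.877 and Ppargc1a at 12.3 ± 3.71 CPM per kb, and the last 3 did not differ beyond their spread. Tfam (6.62 ± 0.553 CPM per kb) and Ppara (5.30 ± 0.847) were lower, and Nrf1 was lowest at 1.55 ± 0.199. In aged IgG2a-injected mice (n = 4) the order on this scale changed at the top. Hnf4a was at 16.8 ± 15.6 CPM per kb, no longer apart from Esrra (13.4 ± 3.39) and Rxra (12.6 ± 1.63), and Ppara stood beside Nrf1 (1.78 ± 1.34 and 1.94 ± 0.214). Without replicate 1 (n = 3) the mean of Hnf4a, 9.08 ± 3.13, was below those of Esrra (11.8 ± 0.845) and Rxra (11.8 ± 0.147). Ppara, at 1.11 ± 0.172, was then below Nrf1 (2.03 ± 0.143). In aged aPD1ab-injected mice (n = 4) Hnf4a again had the highest mean, 65.0 ± 44.7 CPM per kb, followed by Nr1h4 (22.0 ± 8.04) and Esrra (21.1 ± 2.03).

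Between aged IgG2a-injected and young mice, 3 of the 8 regulators fell and none rose. These were the receptors Hnf4a, Nr1h4 and Ppara, each about 3-fold lower, and the 3 fell in a comparison in which 8.38% of 15953 genes were called lower, 9.05% higher and 17.4% in either direction (adjusted p under 0.05). Rxra, Ppargc1a, Esrra, Nrf1 and Tfam were not called. Without aged IgG2a replicate 1, 6 of the 8 were called, of which Hnf4a, Ppara, Nr1h4, Ppargc1a and Rxra were lower and Nrf1 was higher, against 45.6% of 16216 genes called in either direction, 23.5% called lower and 22.1% called higher. With all libraries DESeq2 called the same 3 receptors lower and Nrf1 higher (28% of genes called), limma's voom with sample quality weights added Ppargc1a lower (46.7%), 1 edgeR fit of all 3 groups called Nr1h4 and Ppara (14%), and scaling by library totals called the 3 receptors and Rxra (23.3%). With totals and without replicate 1, all members but Nrf1 were called lower, where 57.8% of genes were called. The levels of Hnf4a, Nr1h4 and Ppara did not overlap between the 2 groups, all lower, and those of the other 5 did, against 14.3% of all genes that did not overlap and 9.45% that were lower without overlap (4.88% higher). Without replicate 1 only Tfam overlapped, 6 members were lower and Nrf1 was higher, against 46.9% of genes without overlap, 28.7% lower and 18.2% higher.

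Hnf4a (ENSMUSG00000017950, GENCODE M21 on GRCm38, chromosome 2, 163506808 to 163572910, plus strand) encodes the receptor that keeps proximal tubule cells differentiated. Its level was 229, 213, 316, 230 and 295 CPM in the young libraries, 192, 30.9, 60.5 and 40.2 in aged IgG2a replicates 1 to 4, and 184, 625, 154 and 292 in the aged aPD1ab libraries. The aged IgG2a libraries all lay below the young ones, with replicate 1 close to them and the other 3 far lower, and the aged aPD1ab libraries spread from below the young range to well above it. Hnf4a was 3.08-fold lower in aged IgG2a mice than in young mice (log2 difference -1.62, SE 0.47, adjusted p = 0.0422), and 5.56-fold lower without replicate 1 (-2.48, SE 0.24, adjusted p = 3.76e-05). The call held in 6 of 17 alternatives. It was lost without a filter on low counts (adjusted p = 0.0746), in the fit of all 3 groups (0.0515) and with the tubule score as covariate (0.539), and leaving out any 1 of the 5 young libraries or of the 3 other aged IgG2a libraries gave adjusted p values between 0.0661 and 0.119. Its log2 difference between aged aPD1ab- and aged IgG2a-injected mice was 1.98 (SE 0.66, adjusted p = 0.122), and without replicate 1 it was 2.81 (SE 0.55, adjusted p = 0.0109). Between aged aPD1ab-injected and young mice it was 0.30 (SE 0.36, adjusted p = 0.574). This last value rested on aged aPD1ab replicate 2, without which it was -0.28 (adjusted p = 0.375).

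Nr1h4 (ENSMUSG00000047638, chromosome 10, 89454234 to 89533585, minus strand) encodes FXR, the bile acid receptor. It stood at 47.4, 34.3, 42.9, 40.6 and 43.8 CPM in young, 25.8, 9.10, 13.4 and 9.01 in aged IgG2a and 31.7, 73.8, 40.7 and 56.4 CPM in aged aPD1ab libraries. Every aged IgG2a library, replicate 1 included, was below every library of both other groups. The gene was 2.79-fold lower in aged IgG2a mice than in young mice (log2 difference -1.48, SE 0.28, adjusted p = 0.0131), and 3.77-fold lower without replicate 1 (-1.92, adjusted p = 9.82e-06). Of 17 alternative settings, 16 kept this call, and the exception was the fit with a proximal tubule marker score as covariate (-0.37, adjusted p = 0.489). The difference between aged aPD1ab- and aged IgG2a-injected mice was 1.82 on the log2 scale (SE 0.39, adjusted p = 0.109), and 2.24 without replicate 1 (SE 0.33, adjusted p = 0.00714). Against young mice the aged aPD1ab libraries overlapped (0.29, SE 0.21, adjusted p = 0.348).

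Ppara (ENSMUSG00000022383, chromosome 15, 85734983 to 85802819, plus strand) encodes the receptor that fatty acids activate. Its level was 18.6, 15.9, 22.2, 24.3 and 20.6 CPM in young, 14.5, 3.59, 4.28 and 4.91 in aged IgG2a and 9.52, 16.2, 8.57 and 14.0 in aged aPD1ab libraries. Unlike Hnf4a and Nr1h4, it was in both aged groups mostly below the young range, and only aged aPD1ab replicate 2 reached into it. Ppara was 2.84-fold lower in aged IgG2a mice than in young mice (log2 difference -1.51, SE 0.37, adjusted p = 0.0263), and 4.56-fold lower without replicate 1 (-2.19, adjusted p = 8.04e-06). It was also 1.66-fold lower in aged aPD1ab-injected than in young mice (-0.73, SE 0.20, adjusted p = 0.0264). These calls were near the threshold. Leaving out any 1 of aged IgG2a replicates 2 to 4 or of young replicates 1, 3, 4 and 5 gave adjusted p values between 0.0504 and 0.0811 for the first, and the second was lost, at 0.0508 to 0.0578, without young replicate 3, 4 or 5 or without aged aPD1ab replicate 1 or 3. The log2 difference of aged aPD1ab from aged IgG2a mice was 0.83 (SE 0.44, adjusted p = 0.244), and 1.47 without replicate 1 (SE 0.28, adjusted p = 0.00956).

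Rxra (ENSMUSG00000015846, chromosome 2, 27676440 to 27762957, plus strand) varied less than the receptors it pairs with. It was at 74.9, 72.7, 91.0, 86.4 and 88.2 CPM in young, 82.2, 65.0, 63.5 and 64.7 in aged IgG2a and 84.3, 123, 72.4 and 115 in aged aPD1ab libraries. The 3 aged IgG2a libraries other than replicate 1 were close to each other (64.4 ± 0.803 CPM, SD, n = 3) and below all other libraries. With replicate 1 the groups overlapped, and the log2 difference from young mice was -0.19 (SE 0.11, adjusted p = 0.230), whereas without it Rxra was called lower (-0.28, SE 0.095, adjusted p = 0.0312). It differed between the aged groups by 0.51 (SE 0.20, adjusted p = 0.140), and 0.58 without replicate 1 (adjusted p = 0.0615). Its difference between aged aPD1ab-injected and young mice was 0.27 (SE 0.16, adjusted p = 0.243).

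**Figure D2:**
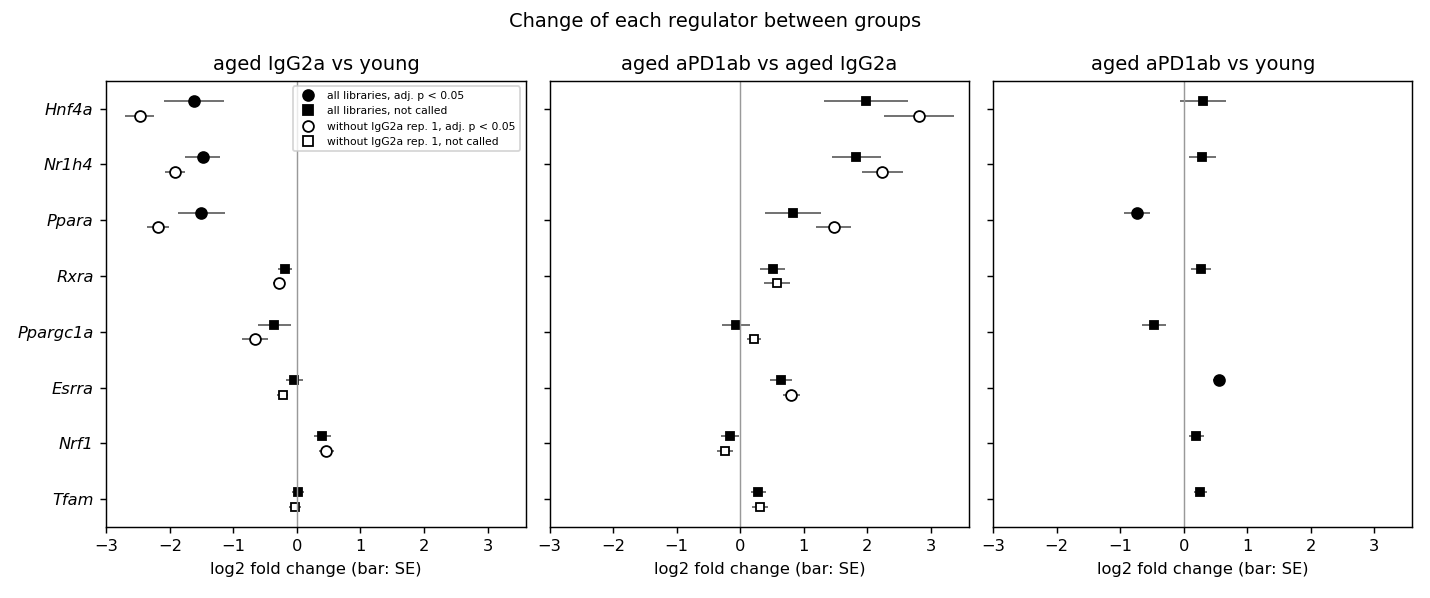
Log2 fold change (horizontal axis, bar: SE) of each regulator (vertical axis) in the 3 comparisons, with all libraries (filled) and without aged IgG2a replicate 1 (open), circles marking an adjusted p under 0.05. Hnf4a, Nr1h4 and Ppara lie at -1.62 to -1.48 in aged IgG2a against young mice with all libraries, and Esrra at 0.56 and Ppara at -0.73 are the filled circles in aged aPD1ab against young mice.

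Between aged aPD1ab- and aged IgG2a-injected mice, none of the 8 regulators was called with all libraries, in a comparison in which edgeR called 0% of 15530 genes. Here 5 of the 8 and 4341 of all genes had an unadjusted p under 0.05, and no gene had an adjusted p below 0.102. The count depended on the tool. DESeq2 called 3 of the 8 (Nr1h4, Esrra and Hnf4a, all higher) and 15.9% of genes, voom called the same 3 with Ppara and Rxra (39.8%), and the fit of all 3 groups called the same 3 with Rxra (17.5%). With a proximal tubule marker score as covariate, edgeR called none of the 8 and 0% of genes. Without aged IgG2a replicate 1, Hnf4a, Nr1h4, Ppara and Esrra were called higher in aged aPD1ab-injected mice, 4 of 8 members against 17.1% of 15770 genes called higher, 13.2% called lower and 30.4% called in either direction. With library totals and without replicate 1, all members but Nrf1 were called higher (32.3% of genes called). The levels of Nr1h4 and Esrra did not overlap between the aged groups, both higher in aged aPD1ab mice, and the other 6 did, against 11.5% of all genes that did not overlap, 6.61% higher and 4.91% lower. These levels are scaled by TMM, and with library totals Esrra overlapped. Without replicate 1 only Ppargc1a overlapped, 6 members were higher and Nrf1 was lower, against 43.4% of genes without overlap, 25.6% higher and 17.8% lower. This comparison shares its aged IgG2a libraries with the comparison to young mice, so a low level in those libraries enters both.

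Esrra (ENSMUSG00000024955, chromosome 19, 6910977 to 6921813, minus strand), the gene of ERRα, had another pattern. It was at 66.1, 58.0, 67.1, 60.9 and 65.2 CPM in young, 80.8, 47.9, 51.7 and 55.3 in aged IgG2a and 89.1, 105, 84.9 and 91.1 in aged aPD1ab libraries. All 4 aged aPD1ab libraries were above all 9 others on this TMM scale. With library totals, aged aPD1ab replicate 3 (76.1 CPM) was below aged IgG2a replicate 1 (82.7 CPM). Esrra was 1.47-fold higher in aged aPD1ab-injected than in young mice (log2 difference 0.56, SE 0.095, adjusted p = 0.00512), and all 16 alternative settings kept the call, with log2 differences between 0.44 and 0.60 and adjusted p values up to 0.0330. The fit with the proximal tubule marker score as covariate gave 0.60 (adjusted p = 8.24e-04). Its difference between the aged groups was 0.64 (SE 0.17, adjusted p = 0.109), and 0.80 without replicate 1 (SE 0.13, adjusted p = 0.00761). With the covariate and all libraries this difference was 0.18 (SE 0.14, adjusted p = 0.825). Between aged IgG2a-injected and young mice it was -0.040 (SE 0.13, adjusted p = 0.851), and -0.22 without replicate 1 (SE 0.085, adjusted p = 0.0530). The exons of Esrra share 73 of 4387 bases with Trmt112, a gene on the opposite strand with a mean of 390 counts, against 1841 for Esrra. Whether the counting used strand is not given in the sources used here, so reads of those bases cannot be divided between the 2 genes.

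Ppargc1a (ENSMUSG00000029167, chromosome 5, 51454250 to 51567726, minus strand), the gene of the coactivator that works through ERRα, did not follow Esrra. It was at 62.1, 65.5, 80.3, 123 and 73.3 CPM in young, 96.4, 44.5, 52.3 and 48.7 in aged IgG2a and 59.0, 51.8, 65.3 and 56.0 in aged aPD1ab libraries. Aged IgG2a replicate 1 and 4 of the 5 young libraries were the highest of all 13, the remaining aged IgG2a libraries were low, and the aged aPD1ab libraries lay between 51.8 and 65.3. With all libraries edgeR called it in no comparison (voom called it lower in aged IgG2a against young mice), with log2 differences of -0.36 (SE 0.26, adjusted p = 0.341) between aged IgG2a-injected and young mice, -0.068 (SE 0.22, adjusted p = 0.865) between the aged groups, and -0.46 (SE 0.19, adjusted p = 0.105) between aged aPD1ab-injected and young mice. Without aged IgG2a replicate 1 it was called lower in aged IgG2a mice than in young mice (-0.66, SE 0.21, adjusted p = 0.0287), and its difference between the aged groups turned to 0.21 (SE 0.12, adjusted p = 0.191).

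Nrf1 (ENSMUSG00000058440, chromosome 6, 30047988 to 30153458, plus strand), a factor for nuclear genes of the respiratory chain, had the lowest level per kb of the members in young and aged aPD1ab mice. With TMM it was the only member with a higher mean in aged IgG2a mice than in both other groups. With library totals its mean there was 17.1 CPM, against 17.7 in young and 18.7 in aged aPD1ab mice. By TMM, Nrf1 was at 17.2, 15.4, 14.5, 13.8 and 18.8 CPM in young, 17.2, 20.4, 19.7 and 22.5 in aged IgG2a and 19.4, 18.3, 15.7 and 19.1 in aged aPD1ab libraries. Aged IgG2a replicates 2 to 4 were above all other libraries, and replicate 1 lay inside the young range. The log2 difference between aged IgG2a-injected and young mice was 0.40 (SE 0.13, adjusted p = 0.0584), and 0.46 without replicate 1 (SE 0.12, adjusted p = 0.00855), but it was -0.042 (adjusted p = 0.836) and -0.055 (adjusted p = 0.760) when counts were scaled by library totals. For the aged groups it was -0.16 (SE 0.14, adjusted p = 0.475) with TMM and 0.13 with library totals (adjusted p = 0.717). Against young mice the aged aPD1ab libraries gave 0.20 (SE 0.12, adjusted p = 0.233).

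Tfam (ENSMUSG00000003923, chromosome 10, 71225464 to 71238280, minus strand), which serves mitochondrial DNA itself, was at 31.9, 28.7, 31.7, 26.0 and 28.5 CPM in young, 30.9, 27.6, 26.2 and 28.4 in aged IgG2a and 30.6, 38.7, 36.1 and 33.8 in aged aPD1ab libraries. Young and aged IgG2a libraries covered nearly the same range, and 3 of 4 aged aPD1ab libraries were above it. With all libraries edgeR did not call Tfam in any comparison without the tubule score as covariate. Its log2 difference was 0.018 (SE 0.091, adjusted p = 0.903) between aged IgG2a-injected and young mice by TMM and -0.40 (adjusted p = 0.0851) by library totals. It was 0.28 (SE 0.12, adjusted p = 0.169) between the aged groups and 0.26 (SE 0.10, adjusted p = 0.0926) between aged aPD1ab-injected and young mice, which was called without aged aPD1ab replicate 1 (0.32, adjusted p = 0.0491).

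In aged aPD1ab-injected against young mice, then, 2 of the 8 regulators were called with all libraries, Esrra higher and Ppara lower, where 22.4% of 15986 genes were called, 12.4% higher and 9.97% lower. DESeq2 (28.9% of genes called), voom (25%) and library totals (15.6%) called the same 2 members, and the fit of all 3 groups called Esrra alone (17.8%, Ppara at adjusted p = 0.160). The groups of Esrra did not overlap. Those of the other 7 members did, against 22% of all genes with groups that did not overlap, 11.3% higher and 10.7% lower. The young libraries are shared with the comparison of aged IgG2a-injected and young mice.

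The receptors that fell moved with the proximal tubule markers. In aged IgG2a-injected against young mice 17 of 20 such markers were lower and none higher (median log2 difference -1.84), and all 20 were lower without replicate 1 (-2.61). Markers of other cells moved too in this comparison, with 9 of 12 macrophage and dendritic cell markers (median 1.18), 3 of 10 T cell markers (1.34) and 5 of 10 B and plasma cell markers (0.78) higher. Of 14 podocyte markers 11 were lower and 1 higher (-1.78), and 7 of 11 endothelial and 4 of 11 mesangial and smooth muscle markers were lower. Of 6 parietal epithelium markers 2 were lower, and 1 of 11 collecting duct markers was higher. The part of all these cells in the levels of the 8 genes was not tested. In a bulk sample, fewer cells of a type and less RNA of a gene in each cell cannot be told apart. Hnf4a stood at a median of 14.0 CPM per 1000 CPM of proximal tubule markers in young libraries (11.6 to 16.6), 16.3 in aged IgG2a (14.4 to 18.5) and 18.7 in aged aPD1ab libraries (13.2 to 22.0), with overlapping ranges. Nr1h4 was at medians of 2.47 (1.86 to 2.89), 3.76 (2.34 to 4.24) and 3.20 (2.42 to 4.25) on this scale, again with overlap, although aged IgG2a replicates 2 to 4 (from 3.40) were above the young range. Ppara was at 1.13 (0.862 to 1.67) in young, 1.49 (1.31 to 1.85) in aged IgG2a and 0.804 (0.531 to 1.05) in aged aPD1ab libraries, so that the ranges of the 2 aged groups did not overlap. The other 5 members were much higher per proximal tubule marker in aged IgG2a mice, for example Esrra at 18.4 (7.35 to 22.3) against 3.68 (2.98 to 4.19) in young and 7.05 (3.45 to 8.21) in aged aPD1ab libraries. The marker sum that divides these levels had a median of 17728 CPM in young and 2958 in aged IgG2a libraries. Esrra itself differed by a log2 value of -0.040, so its higher ratio is not a measure of RNA per tubule cell.

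With the marker score as a covariate, none of the 8 regulators was called between aged IgG2a-injected and young mice, where the same fit called 0.244% of all genes. The log2 difference of Hnf4a was then 0.28 (SE 0.20, adjusted p = 0.539), that of Ppara -0.14 (SE 0.32, adjusted p = 0.869) and that of Nr1h4 -0.37 (SE 0.24, adjusted p = 0.489). Since the score itself differs between these groups, and HNF4A is known to maintain genes of this kind, the score and the group cannot be told apart. The same holds between the aged groups, where this fit called none of the 8 and 0% of all genes. Of the 8 log2 differences there, 5 were positive and 3 negative. Nr1h4 was at 0.67 (SE 0.24, adjusted p = 0.801) and Rxra at 0.074 (SE 0.24, adjusted p = 0.960). The score (mean log2 CPM of the markers) was 8.55 to 9.20 in young libraries and 8.11, 9.60, 8.09 and 8.47 in aged aPD1ab libraries. None of the latter lay inside the young range, and the ranges overlapped only through aged aPD1ab replicate 2. The fit of aged aPD1ab-injected and young mice called 5 of the 8 members against 33.3% of all genes. Esrra (0.60), Hnf4a (0.40, adjusted p = 0.0344), Rxra (0.35, adjusted p = 0.0450) and Tfam (0.30, adjusted p = 0.0301) were higher and Ppara was lower (-0.66, adjusted p = 0.0121).

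**Figure D3:**
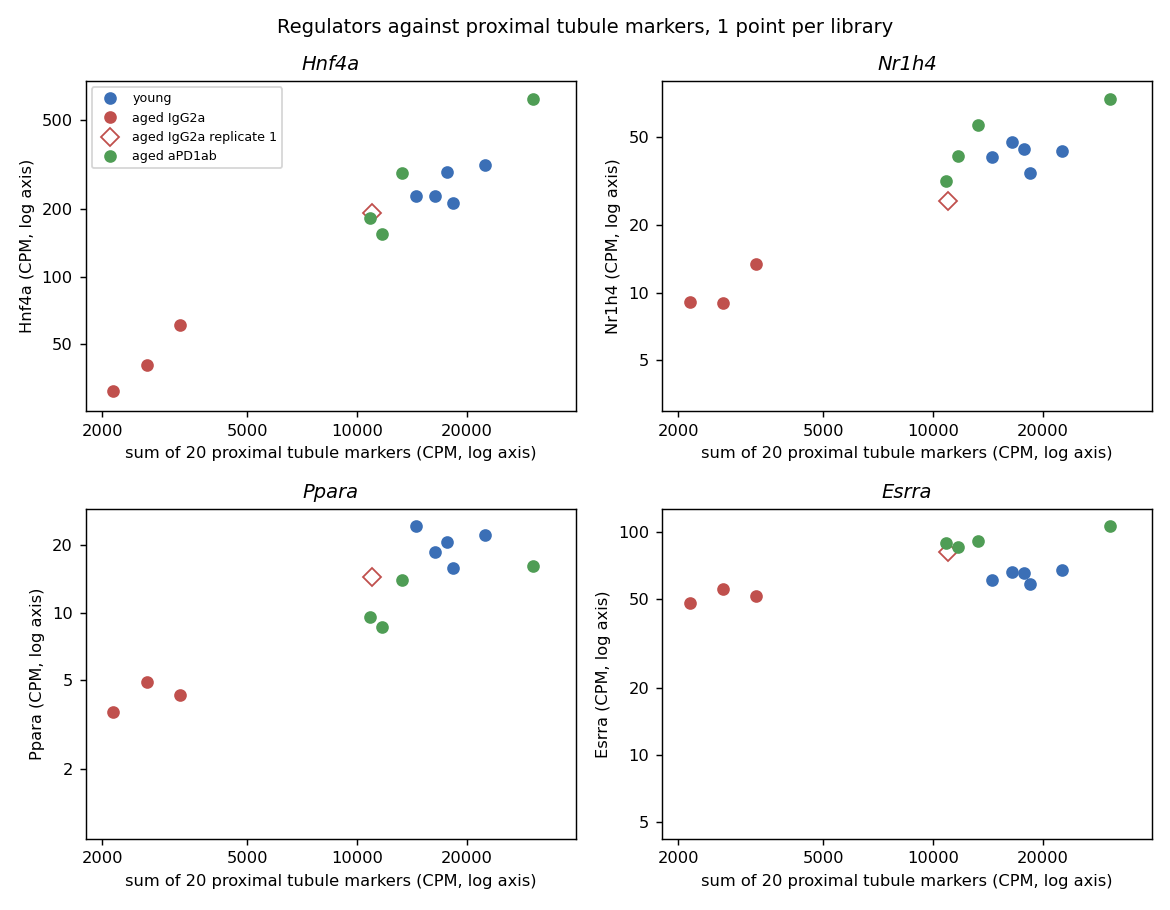
Level of Hnf4a, Nr1h4, Ppara and Esrra (vertical axes, CPM, log scale) against the summed level of 20 proximal tubule markers (horizontal axis, CPM, log scale), 1 point per library and the open diamond for aged IgG2a replicate 1. Hnf4a and Nr1h4 climb with the markers from 2147 to 30499 CPM, Ppara of 3 of the 4 aged aPD1ab libraries lies below that of every young library, and Esrra of all 4 lies above that of every young library.

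Across the 13 libraries, which share group, cell makeup and scaling, the Pearson correlation of log2 CPM with the proximal tubule marker score was 0.98 for Hnf4a, 0.95 for Nr1h4, 0.93 for Ppara, 0.75 for Rxra, 0.64 for Esrra, 0.54 for Tfam, 0.49 for Ppargc1a and -0.63 for Nrf1. With the score of the podocyte markers it was 0.73 for Ppara, 0.62 for Ppargc1a, 0.54 for Nr1h4 and 0.50 for Hnf4a. For Rxra, Esrra, Tfam and Nrf1 it was 0.16, 0.031, -0.19 and -0.57. Among the members, Hnf4a and Nr1h4 were most alike (r = 0.97), Esrra and Tfam reached 0.85, and Ppargc1a was at 0.088 with Esrra and -0.77 with Nrf1. Of 14044 other genes with a mean of at least 1 CPM, those closest to Hnf4a were Xylb and Adra2b (r = 0.99 each) and those closest to Nr1h4 were Bphl and Pdzd3 (0.99 each). Nckap1 and Nbr1 were closest to Ppara (0.98 each), Aes and Atp5d, a subunit of the mitochondrial ATP synthase, to Esrra (0.99 each), and Pkhd1 and Frk to Ppargc1a (0.96 and 0.95). For Rxra they were Snx6 (0.98) and Ap2a2 (0.96), for Tfam Cplx2 (0.95) and Gstp-ps (0.94), and for Nrf1 Sf3a2 (0.95) and Mcoln2 (0.94).

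The genes that these regulators are known to control were followed as lists, each described by its counts and its median log2 difference. The median of all genes was 0.038 in aged IgG2a against young mice (-0.0062 without replicate 1), -0.011 between the aged groups (0.0052) and 0.017 in aged aPD1ab against young mice. Counts are those of the edgeR fit of the 2 groups. With all libraries it called no gene between the aged groups, so counts of the edgeR fit of all 3 groups are given too. In aged IgG2a against young mice 9.05% of all genes were called higher and 8.38% lower (22.1% and 23.5% without replicate 1). Between the aged groups the fit of all 3 groups called 17.5% in either direction, and without replicate 1 the shares were 17.1% higher and 13.2% lower. In aged aPD1ab against young mice 12.4% were higher and 9.97% lower. The list of 30 HNF4A-dependent proximal tubule genes, 13 of which are also among the 20 proximal tubule markers, had 23 members lower and none higher in aged IgG2a mice than in young mice (median log2 difference -1.66 against 0.038 for all genes), and 29 lower without replicate 1 (-2.48). Slc34a1, the sodium phosphate cotransporter, was at 2642 ± 625 CPM in young (SD, n = 5), 710 ± 590 in aged IgG2a (n = 4) and 2954 ± 1618 in aged aPD1ab mice (n = 4), and was lower in aged IgG2a mice than in young mice (-1.85, adjusted p = 0.0270). Ass1, an enzyme of arginine synthesis, and Miox, which opens inositol, differed by -1.57 (adjusted p = 0.0244) and -1.69 (adjusted p = 0.0258). The median of the list between the aged groups was 1.86 with none called (23 higher in the fit of all 3 groups), and without replicate 1 it was 2.62 with 29 higher and none lower. Against young mice the aged aPD1ab libraries gave 0.063, with 1 higher and none lower.

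Of the 34 fatty acid oxidation genes known as targets of PPARA, 33 could be tested between aged IgG2a-injected and young mice, of which 11 were lower and 1, the lipid droplet gene Plin2, was higher (median -0.79). Slc27a2, a fatty acid transporter that is also a proximal tubule marker, was at 1087 ± 152 CPM in young, 291 ± 279 in aged IgG2a and 898 ± 628 in aged aPD1ab mice, and differed by -1.87 (adjusted p = 0.0313) between aged IgG2a-injected and young mice. Without replicate 1 the list had 29 lower and 1 higher, with a median of -1.15. Its median between the aged groups was 0.94 with none called (8 higher in the fit of all 3 groups), and without replicate 1 it was 1.39 with 28 higher and none lower. In aged aPD1ab against young mice the median was 0.057 with 3 higher and 2 lower. The 2 lower genes were Cpt1a, the carnitine transferase at the entry to mitochondrial oxidation (-0.52, adjusted p = 0.0232), which stood at 431 ± 31.5 CPM in young and 298 ± 48.0 in aged aPD1ab mice, and Cd36, a fatty acid uptake receptor (-1.11).

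The 16 FXR target and bile acid genes went in both directions. Fgf15 and Cyp7a1 had 0 counts in all 13 libraries, which allows a level of up to 0.0851 to 0.202 CPM by library (3 counts). Between aged IgG2a-injected and young mice 12 genes could be tested, with 4 lower and 2 higher (median -0.47), against 8.38% and 9.05% of all genes. Without replicate 1, 7 were lower and 3 higher (median -1.56), against 23.5% and 22.1% of all genes. Abcc2, an apical export pump of the tubule, had a mean of 150 CPM in young, 42.4 in aged IgG2a and 171 in aged aPD1ab mice (-1.78 between aged IgG2a-injected and young mice, adjusted p = 0.0309), and Slc51a, a subunit of a basolateral bile acid exporter, differed by -2.08. Cyp27a1, a sterol hydroxylase of the bile acid pathway, was instead higher (0.84, adjusted p = 0.0455), as was Abcc3, another export pump (1.46). Abcc4 was not called (-0.078, adjusted p = 0.760). The 11 genes tested between the aged groups had a median of 1.30 with none called, or 2 higher and 1 lower in the fit of all 3 groups (without replicate 1, 1.92 with 5 higher and 2 lower), and between aged aPD1ab-injected and young mice the median was 0.21 with 1 higher and 1 lower.

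The 37 nuclear mitochondrial genes known as targets of PGC-1α and ERRα had a median of -0.30 in aged IgG2a-injected against young mice, with 1 higher and none lower. Without replicate 1, 33 were lower and 1 higher (-0.60). Atp5b, the catalytic β subunit of the ATP synthase, was at 1789 ± 160 CPM in young, 1272 ± 557 in aged IgG2a and 1992 ± 268 in aged aPD1ab mice. Between aged IgG2a-injected and young mice it differed by -0.44 (adjusted p = 0.231) and Atp5a1, the α subunit, by -0.36 (adjusted p = 0.283). In aged aPD1ab against aged IgG2a mice the median was 0.62 with none called (20 higher in the fit of all 3 groups), and without replicate 1 it was 0.90 with 35 higher and 1 lower. In aged aPD1ab-injected against young mice, 11 of the 37 were higher and none lower (median 0.24 against 0.017 for all genes, of which 12.4% were called higher). The fit of all 3 groups called 4 of the 37 higher there, against 9.13% of all genes. Proximal tubule marker sums were 14523 to 22537 CPM in young and 10857, 30499, 11713 and 13284 CPM in aged aPD1ab libraries. None of the latter lay inside the young range. Markers of other cells differed in this comparison, with 5 of 14 podocyte, 4 of 11 mesangial and smooth muscle (1 higher) and 3 of 11 endothelial markers lower. Of B and plasma cell markers 4 of 10 were higher, and of T cell markers 3 of 10. Of 11 collecting duct markers 2 were higher and 1 lower, and 1 of 6 parietal epithelium markers was lower. The part of all these cells in these counts was not tested.

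The genes of the mitochondrial genome moved the other way. All 13 mitochondrially encoded mRNAs had positive differences in aged IgG2a-injected against young mice, with 10 called higher (median 1.26) and 13 without replicate 1 (1.46). The size of these differences depends on the scaling. TMM factors were 0.725 to 1.02 in aged IgG2a and 1.03 to 1.18 in young libraries, which makes the differences larger than those of the shares of counts. The median share was 26.5% in young, 41.9% in aged IgG2a and 24.7% in aged aPD1ab libraries. Mt-Co1, a subunit of cytochrome oxidase, was at 83642.5 ± 14343 CPM in young, 181922 ± 69275 in aged IgG2a and 94647.5 ± 31035 in aged aPD1ab mice (1.21 between aged IgG2a-injected and young mice, adjusted p = 0.0470). Mt-Cytb and mt-Nd1 differed by 1.30 (adjusted p = 0.0378) and 1.16 (adjusted p = 0.0472). Between the aged groups the median was -1.08 with none called (4 lower in the fit of all 3 groups), and without replicate 1 it was -1.36 with 6 lower. The aged aPD1ab libraries gave 0.23 against young mice, with none called in either direction. Tfam, which acts on this genome, was not called in these same fits with all libraries. Of 26 other listed genes of mitochondrial DNA upkeep and transcription, 25 were found by symbol. They had a median of -0.12 in aged IgG2a-injected against young mice, with Tk2, a nucleoside kinase, higher (0.63) and Top1mt, the mitochondrial topoisomerase, lower (-1.12). Lonp1 (-0.26, adjusted p = 0.206), Lrpprc (-0.51, adjusted p = 0.0658) and Polg (-0.014, adjusted p = 0.932) were not called. Between the aged groups their median was 0.31 with none called (6 higher and 2 lower in the fit of all 3 groups). Without replicate 1 it was 0.39 with 7 higher and 3 lower, against 17.1% and 13.2% of all genes. Against young mice the aged aPD1ab libraries gave 0.088 with 2 higher and 1 lower, against 12.4% and 9.97% of all genes.

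**Figure D4:**
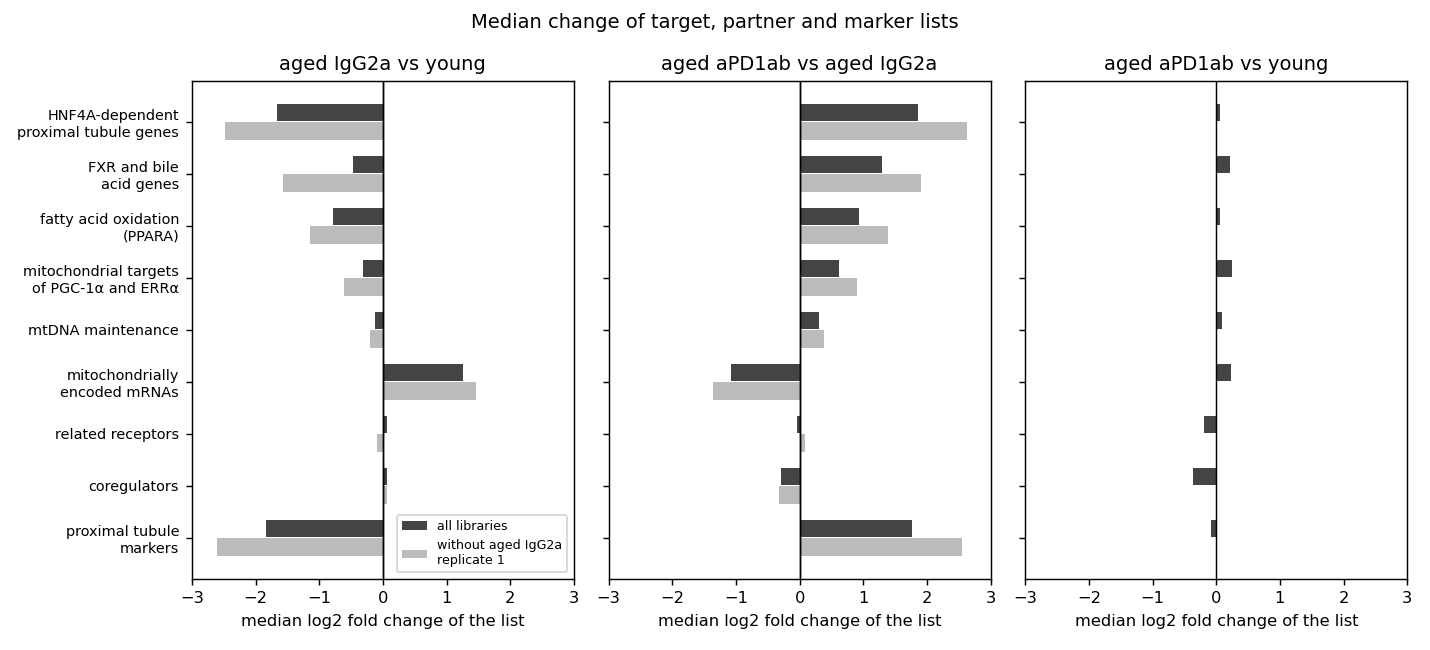
Median log2 fold change (horizontal axis) of the target, partner and marker lists (vertical axis) in the 3 comparisons, dark bars with all libraries and light bars without aged IgG2a replicate 1. The mitochondrially encoded mRNAs are at 1.26 and the 8 other lists plotted at 0.071 or lower in aged IgG2a against young mice, and between the aged groups the tubule lists are above 0 and the mitochondrially encoded mRNAs at -1.08.

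Among 20 relatives and partner receptors, 19 could be tested between aged IgG2a-injected and young mice, where 2 were higher and 2 lower, a share near the 9.05% and 8.38% of all genes called higher and lower. Pparg, the lipid-storing relative of Ppara, was higher (1.58), with 7.20 CPM in young, 20.2 in aged IgG2a and 11.4 in aged aPD1ab mice, and Nr1h3, the gene of the oxysterol receptor LXRα, was also higher (1.02), with 14.5, 27.8 and 32.4 CPM. Ppard, another relative of Ppara, was lower (-0.49). Vdr, the vitamin D receptor and another partner of RXRA, was not called between aged IgG2a-injected and young mice (-0.75, adjusted p = 0.0801) but was lower in aged aPD1ab-injected than in young mice (-0.55, adjusted p = 0.0223). Sp1, a general factor, was also lower in aged aPD1ab-injected than in young mice (-0.45, adjusted p = 0.0220). Esrrg, the sister of Esrra, was also lower there (-0.71), where Esrra was higher. That comparison had 2 relatives higher and 5 lower, against 12.4% and 9.97% of all genes. None was called between the aged groups with all libraries (2 lower in the fit of all 3 groups). Without replicate 1, 4 were higher and 4 lower, against 17.1% and 13.2% of all genes.

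Coregulators and upstream kinases, 20 genes in all, had 2 members lower and none higher in aged IgG2a mice than in young mice, near the share of 8.38% of all genes called lower. These were Prkaa2, a catalytic subunit of the energy sensor AMPK (-0.99), and Lpin1, a partner of PGC-1α and PPARA (-0.55). Between aged aPD1ab-injected and young mice 7 were lower and 3 higher (median -0.37), against 9.97% and 12.4% of all genes. Ncor1, a corepressor, was lower there (-0.51, adjusted p = 0.0332), at 169 ± 18.5 CPM in young, 123 ± 16.2 in aged IgG2a and 117 ± 24.0 in aged aPD1ab mice. Ep300, an acetyltransferase that coactivates these receptors, was lower as well (-0.58). Ncoa3, a coactivator, was not called (-0.28, adjusted p = 0.182). None was called between the aged groups with all libraries (median -0.30), or 1 higher and 2 lower in the fit of all 3 groups. Without replicate 1, 3 were higher, among them Sirt3, the mitochondrial deacetylase (1.34), and 5 were lower, against 17.1% and 13.2% of all genes.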

How the data were processed

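RNA-Seq counts per Ensembl gene were used as deposited by the authors, whose processing notes name HISAT2, featureCounts and mm10/GRCm38. The annotation and the strand setting of the counting are not given in the sources used here. Columns were placed in groups by the grouping the study shows, not tied to single labelled samples, and 2 of 15 columns were not used. Symbols came from GENCODE M21 (45143 of 46078 genes matched), promoters from RefSeq GRCm38.p6.

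Each comparison was fitted on its own 2 groups with edgeR 4.0.16 in R 4.3.3 (filterByExpr, TMM, quasi-likelihood F test, Benjamini-Hochberg adjustment over all genes tested, call at adjusted p under 0.05), and CPM used TMM library sizes. Each library is from 1 mouse. Alternatives were RLE scaling, DESeq2 1.42.0, limma 3.58.1 (voom with sample quality weights), no filter, 1 fit of all groups, a proximal tubule marker score as covariate, each library left out, and library totals. The code was tested on simulated counts.

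The 8 genes, the pathway lists and the marker lists were chosen with earlier results of these data known. Named were the 8 genes, the 3 genes of highest mean CPM in each pathway list among those passing the filter in every comparison, and the 2 genes nearest in log2 CPM (prior count 2, mean CPM of at least 1) to each of the 8. Slc51a, Abcc3, Plin2, Cd36, Tk2, Top1mt, Pparg, Nr1h3, Ppard, Esrrg, Prkaa2, Lpin1, Ep300 and Sirt3 were named after their values were seen, as were the undetected Fgf15 and Cyp7a1. Some genes that this rule names are not reported here.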

Additional observations from a re-analysis of the deposited data

Results flagged for a closer look

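For 3 of the 8 regulators, 1 library lay far from the rest of its group by Dixon's test, of 24 combinations of gene and group tested, where chance gives about 1 in 20. In all 3 it was aged IgG2a replicate 1 and it was the highest, with Ppara at 14.5 CPM against 3.59 to 4.91 in the other 3 libraries, Ppargc1a at 96.4 CPM against 44.5 to 52.3, and Rxra at 82.2 CPM against 63.5 to 65.0. The same library had the highest proximal tubule (10997 CPM), loop of Henle and distal tubule (17929 CPM) and collecting duct (1270 CPM) marker sums of its group. It also had the lowest share of mitochondrially encoded mRNAs (28.6%). What sets it apart was not tested.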

How the results depend on the processing

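Esrra higher in aged aPD1ab-injected mice than in young mice was called in all 16 alternatives, and Nr1h4 lower in aged IgG2a mice than in young mice in 16 of 17. Counts of calls moved more. Between aged IgG2a and young mice, 2780 genes and 3 of the 8 regulators were called, against 4455 genes with DESeq2, 7447 genes and 5 regulators with voom, 39 genes and 0 regulators with the proximal tubule marker score as covariate, and 553 to 7397 genes and 1 to 6 regulators with 1 library left out, the lowest without aged IgG2a replicate 3 (553 genes) and the highest without replicate 1. Between the aged groups, 0 genes and 0 regulators became 2373 and 3 with DESeq2, 6177 and 5 with voom, 2863 and 4 in 1 fit of all 3 groups, and 0 to 4788 genes and 0 to 4 regulators with 1 library left out, the highest without aged IgG2a replicate 1. Between aged aPD1ab and young mice, 3578 genes and 2 regulators became 1 regulator in the fit of all 3 groups, 5 with the covariate, and 2369 (without aged aPD1ab replicate 4) to 3868 genes and 1 to 2 regulators with 1 library left out. Scaling by library totals was added after seeing the data. With it and without aged IgG2a replicate 1, 9380 genes (1004 higher, 8376 lower, against 3584 and 3813 with TMM) and 7 regulators were called against young mice, and 5088 genes (4580 higher, 508 lower, against 2702 and 2086) and 7 regulators between the aged groups.

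Directions turned in the following log2 differences. Between aged IgG2a and young mice the covariate gave 0.28 for Hnf4a, 0.34 for Ppargc1a, 0.49 for Esrra and 0.063 for Rxra. Esrra ranged from -0.22 to 0.040 with 1 library left out. Tfam was -0.039 with voom, -0.020 without a filter, -0.045 in the fit of all 3 groups, -0.025 to 0.051 with 1 library left out, and -0.40 with library totals or -0.54 with totals and without replicate 1, where Nrf1 was -0.042 and -0.055. Between the aged groups the covariate gave -0.035 for Hnf4a, -0.38 for Ppara and 0.037 for Nrf1. Ppargc1a was 0.17 with voom, -0.21 to 0.21 with 1 library left out, and 0.13 and 0.59 with totals, where Nrf1 was 0.13 and 0.14. Hnf4a between aged aPD1ab and young mice was -0.018 with voom and -0.28 to 0.52 with 1 library left out. The cause was not tested.

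No paired analysis was possible because neither the labels nor the columns give replicate numbers that groups share. Depth did not limit the 8 genes, whose lowest count was 73. Leaving out any single library moved the count of genes called between aged IgG2a and young mice by over 1.5 times.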
